A study of Mus musculus with 56 samples.

Results

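The dermal papilla (DP), the cluster of specialised mesenchymal cells at the base of each hair follicle, was compared with dermal fibroblasts (DF), the mesenchymal cells of the surrounding dermis, across the whole transcriptome of mouse back skin. The comparison used the 16 libraries that the labels place in these populations, 8 of DP and 8 of DF, out of 56 libraries of 7 sorted populations. Each population was collected from 4 zones of dorsal skin with 2 replicates per zone, which the labels call biological replicates. Cells were sorted by flow cytometry at postnatal day 22 from CD1 mice, and both DP and DF came from the triple reporter line K14-H2BGFP;Crabp1-GFP;Lef1-RFP. These transgenes place fluorescent proteins under the control of Krt14, Crabp1 and Lef1, so both groups carried all 3 alleles and neither was reporter-free. The labels do not give the positions of the zones, the number of animals behind a library or the sort gates, and the submitters list each zone as a batch, which leaves position on the back and batch inseparable. Because the labels do not say that replicates came from separate animals, the p-values measure the spread between these libraries, part of which may be technical.

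The DP is a signalling centre. It receives Wnt, hedgehog, platelet-derived and hormonal signals from the follicle epithelium and the circulation and sends out R-spondins, bone morphogenetic proteins (BMPs), activin and fibroblast growth factors (FGFs) that set the timing of the hair cycle. Dermal fibroblasts build and maintain the collagen and elastic matrix of the skin, and the dermis also holds contractile cells, in the dermal sheath of the follicle, the arrector muscle and the vessel walls.

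Values are RPKM (reads per kilobase of transcript, scaled to the mapped reads of the library). Where 3 values follow a gene they are the lowest, median and highest of the 8 libraries of a population, and where 1 value per population follows it is the median. Differences are DP minus DF on the log2(RPKM + 1) scale, estimated with limma within zones, with the standard error (SE) and a p-value adjusted by Benjamini-Hochberg over 13922 tested genes of 24062 in the table. The added 1 RPKM understates the difference of genes near 0. A gene was called when its adjusted p was under 0.05 and its difference at least 1 on the log2 scale.

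The DP libraries were far less concentrated on a few transcripts than the DF libraries. The 10 most abundant genes held 15.1 ± 1.47% of summed RPKM in DP and 39.5 ± 2.44% in DF (SD, n = 8 each), and 699 ± 45.0 genes in DP against 99.9 ± 31.8 genes in DF made up 50% of the total, as the cumulative curves show. These shares leave out the ribosomal RNA precursor row Rn45s, which took 10.2 ± 1.15% of reads in DP and 17.9 ± 1.62% in DF. The short locus Mir6236 followed it in both populations, with means of 16710.5 RPKM in DP and 26333 RPKM in DF, and without it the 10 most abundant genes held 9.91 ± 0.985% in DP and 33.2 ± 2.03% in DF. The next places in DP belonged to the nuclear long non-coding RNA Malat1 at 5.08% of all RPKM and to Igfbp3 and Inhba at 0.843% and 0.688%, and in DF to Col1a1, Sparc and Col1a2 at 8.17%, 8.003% and 4.94%. RPKM is a share of each library's reads, so a large share for a few genes leaves a smaller one for the rest. The median difference of all tested genes was 0.65 on deposited values and 0.05 after each library was rescaled by the median of its gene ratios. The deposited values gave 4103 genes higher in DP (29.5% of those tested) and 1041 lower (7.48%), so 79.8% of the calls were higher in DP. After rescaling 999 genes were higher (7.18%) and 1871 lower (13.4%), and 34.8% of the calls were higher; quantile scaling and limma-voom on recovered reads gave 43.5% and 39.4%. No gene was called in opposite directions. The text below counts a gene as higher or lower only when both scalings called it in that direction, which leaves 999 genes higher in DP (7.18%) and 1041 lower (7.48%); a gene given as not called missed that rule. These percentages are the background for every list that follows. All DP libraries were above all DF libraries in 22.9% of tested genes and below them in 6.22%, which is the background for statements on overlap. List medians are given on deposited values and then after scaling, and bulk libraries cannot tell fewer cells of a type from less RNA per cell.

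**Figure D1:**
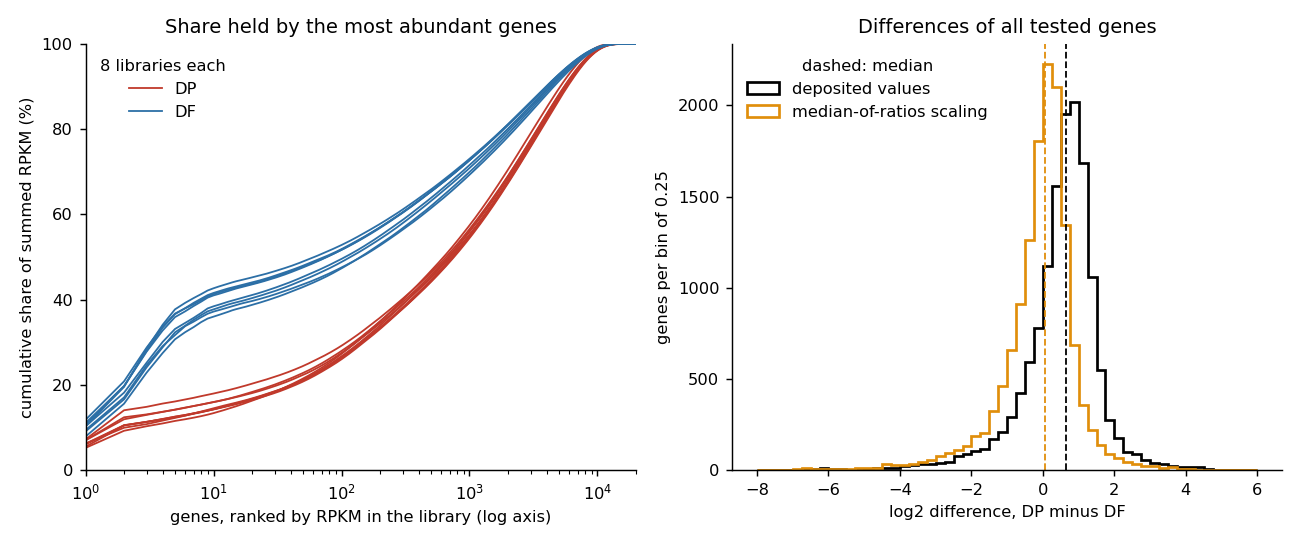
The left panel plots the cumulative share of summed RPKM (%) against gene rank (log axis) for the 8 DP and 8 DF libraries; the first 10 genes hold 15.1% in DP and 39.5% in DF. The right panel is a histogram of the log2 differences, DP minus DF, of 13922 genes on deposited and on rescaled values, with medians of 0.65 and 0.05.

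The labels of the sort were checked with genes behind the reporters and with papilla markers. Crabp1, the retinoid-binding protein behind one of the reporters, had 440.0, 867 and 1274 RPKM in DP against 40.5, 69.3 and 89.97 RPKM in DF. The keratin gene Krt14, behind another, overlapped, with 1.24, 2.14 and 5.11 RPKM in DP against 0.779, 4.56 and 11.4 RPKM in DF. Of 29 tested dermal papilla markers 22 were higher in DP and 1, Ntn1, was lower. The reporters of the sort are under Krt14, Crabp1 and Lef1 only. The libraries were labelled as papilla, so the marker counts are a check of that label and not a finding. Both populations had the fibroblast gene Pdgfra, with 55.6, 77.1 and 82.95 RPKM in DP against 29.2, 38.02 and 44.6 RPKM in DF. The fat, skeletal muscle and red cell markers Adipoq, Myh4 and Hba-a1 were at 0 in all 16 libraries, but other listed genes were present. Ckm of skeletal muscle had 0 RPKM in DP and 3.07 RPKM in DF. Alas2 of red cells had 5.84 RPKM in DP and 1.61 RPKM in DF and was not called. Of 6 tested skeletal muscle genes 1 was higher and 2 lower. Of 3 tested adipocyte markers 0 were called, and their sums overlapped, at 22.1 RPKM in DP and 6.40 RPKM in DF. Keratinocyte markers summed to 30.8, 50.9 and 81.97 RPKM in DP against 34.5, 93.6 and 161 RPKM in DF, and macrophage markers to 45.1, 74.01 and 143 RPKM against 72.7, 90.4 and 126 RPKM, so these ranges overlapped. Pericyte and vessel smooth muscle markers summed to 64.3, 73.5 and 97.8 RPKM in DP against 839.8, 1074 and 1284 RPKM in DF, and Schwann cell markers to 119, 169 and 221 RPKM against 329, 356 and 425 RPKM, both without overlap. Of 13 tested pericyte and vessel markers 0 were higher and 8 lower, among them the contractile genes Acta2, Myh11 and Des. The pericyte gene Kcnj8 overlapped, at 15.85 RPKM in DP and 7.98 RPKM in DF. So did Rgs5, at 3.11 RPKM in DP and 7.23 RPKM in DF. Abcc9 did not overlap, at 0.557 RPKM in DP and 3.56 RPKM in DF. The sum of melanocyte markers was also lower in DP without overlap, at 11.96, 14.1 and 19.9 RPKM in DP against 28.96, 32.5 and 46.7 RPKM in DF. Of 9 tested members 0 were higher and 2 lower, Gpnmb and Sox10. The pigment cell gene Dct overlapped, at 1.09 RPKM in DP and 1.54 RPKM in DF. So did Tyr, at 0.0347 RPKM in DP and 0.0657 RPKM in DF. The sum of hair germ and matrix markers was higher without overlap, at 33.5, 51.6 and 67.3 RPKM in DP against 6.74, 8.68 and 14.4 RPKM in DF, as was that of endothelial markers, at 18.98, 35.6 and 44.2 RPKM in DP against 13.2, 17.7 and 18.5 RPKM in DF. Of 6 tested hair germ and matrix markers 2 were higher and 0 lower. Of 17 tested endothelial markers 1, Kdr, was higher, 1, Ecscr, was lower and 15 were not called. Pecam1 overlapped, at 2.225 RPKM in DP and 2.164 RPKM in DF. The part of these cells in the differences was not tested. Total read depth, recovered from the RPKM steps, was 9.24 to 26.0 M reads in DP and 13.7 to 40.1 M reads in DF. Correlations between libraries across genes were 0.861 to 0.936 within DP, 0.903 to 0.932 within DF and 0.705 to 0.752 between them.

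DP libraries detected more genes. At 1 RPKM or more there were 11489 ± 315 genes in DP and 10794 ± 191 in DF (SD, n = 8 each), a difference of 695.5 genes (exact two-sided permutation p = 0.000777). At 10 RPKM or more the counts were 5475.8 ± 122 in DP and 3542 ± 129 in DF (exact permutation p = 0.0001554, the smallest this test can give). The permutation exchanged libraries freely between the populations and did not keep them within zones. After rescaling the order at 1 RPKM turned round, with 11006 ± 231 genes in DP and 11368 ± 107 in DF, a difference of -361.6 genes (exact permutation p = 0.0001554), so the direction of this difference depends on the scaling.

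Signalling lists differed in direction, and several matrix, contractile and innate immune lists had more members lower in DP. Across the gene lists, all 3 Wnt lists and the FGF, hedgehog, Notch and insulin-like growth factor lists had more members higher than lower. Other signal lists did not follow, as neurotrophic and neuropeptide signals gave 4 of 24 tested members higher and 9 lower (median log2 difference -0.54, after scaling -0.88) and the PDGF, VEGF, HGF and EGF family gave 3 of 29 tested members higher and 7 lower (median log2 difference 0.22, after scaling -0.02, of opposite sign). Collagens, small leucine-rich proteoglycans, serpins, smooth muscle and interferon genes had more lower, as the chart of list shares shows for most of them. Large and hyaluronan-binding proteoglycans gave 2 of 14 tested members higher and 2 lower (median log2 difference 0.53, after scaling -0.18, of opposite sign). The lists of ribosomal proteins, constitutive proteasome subunits, translation factors and Hox genes had no member past both scalings.

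**Figure D2:**
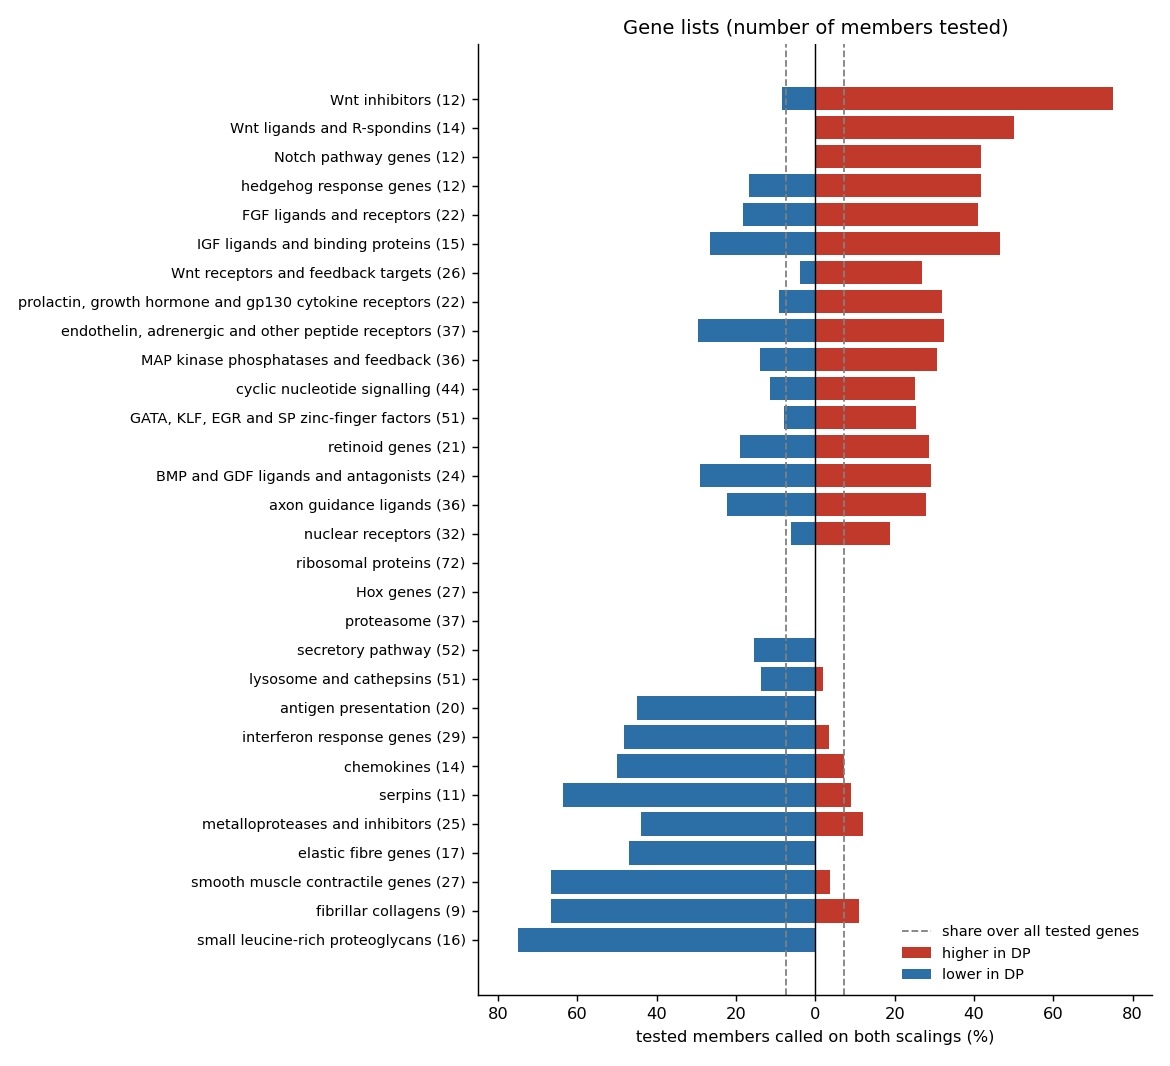
Bars give the percentage of tested members called on both scalings in 30 gene lists, higher in DP to the right and lower in DP to the left, with the number tested beside each name. Dashed lines mark the shares over all tested genes, 7.18% higher and 7.48% lower.

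The genes with the greatest differences show both poles. The 15 named genes highest in DP relative to DF (Slc26a7, Sox18, Cacng7, Epn3, Rspo3, Prlr, Pappa2, Tfap2c, Slc12a1, Alx4, Crispld1, Mdk, Gdf10, Bmp7 and Prdm1) summed to 2129 to 2651 RPKM per DP library and 59.9 to 140.8 RPKM per DF library. The 15 lowest (Lum, Cpz, Acta2, Pcolce2, Myh11, Dcn, Cd34, Igfbp2, Itgbl1, Des, Clec3b, Ccl11, Mylk, Ly6a and Col1a1) summed to 259.5 to 606 RPKM per DP library, 0.0947 to 0.224% of the total, against 24347 to 30320 RPKM and 9.58 to 11.4% in DF. Tfap2c, an AP-2 transcription factor, had 107, 121 and 151 RPKM in DP against 2.49, 4.47 and 6.87 RPKM in DF (log2 difference 4.48 ± 0.14 SE, adjusted p = 4.23e-14). Prdm1, the repressor Blimp1, known from papillary fibroblasts, had 95.96, 154 and 255 RPKM in DP against 3.57, 6.56 and 10.4 RPKM in DF (log2 difference 4.42 ± 0.20 SE, adjusted p = 4.29e-12). Mdk encodes midkine, a heparin-binding growth factor, and had 143, 176 and 245 RPKM in DP against 2.79, 7.81 and 13.6 RPKM in DF (log2 difference 4.44 ± 0.20 SE, adjusted p = 3.29e-12). In each of these genes the lowest DP library stood above the highest DF library. Clec3b, the tetranectin gene of connective tissue, had 0.0863, 1.16 and 11.9 RPKM in DP against 166, 182 and 289 RPKM in DF (log2 difference -6.15 ± 0.33 SE, adjusted p = 4.61e-11). Itgbl1, an integrin beta-like secreted protein, had 0.183, 1.89 and 4.53 RPKM in DP against 146, 199 and 237 RPKM in DF (log2 difference -6.23 ± 0.29 SE, adjusted p = 7.57e-12). All DF libraries were above all DP libraries for both.

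**Figure D3:**
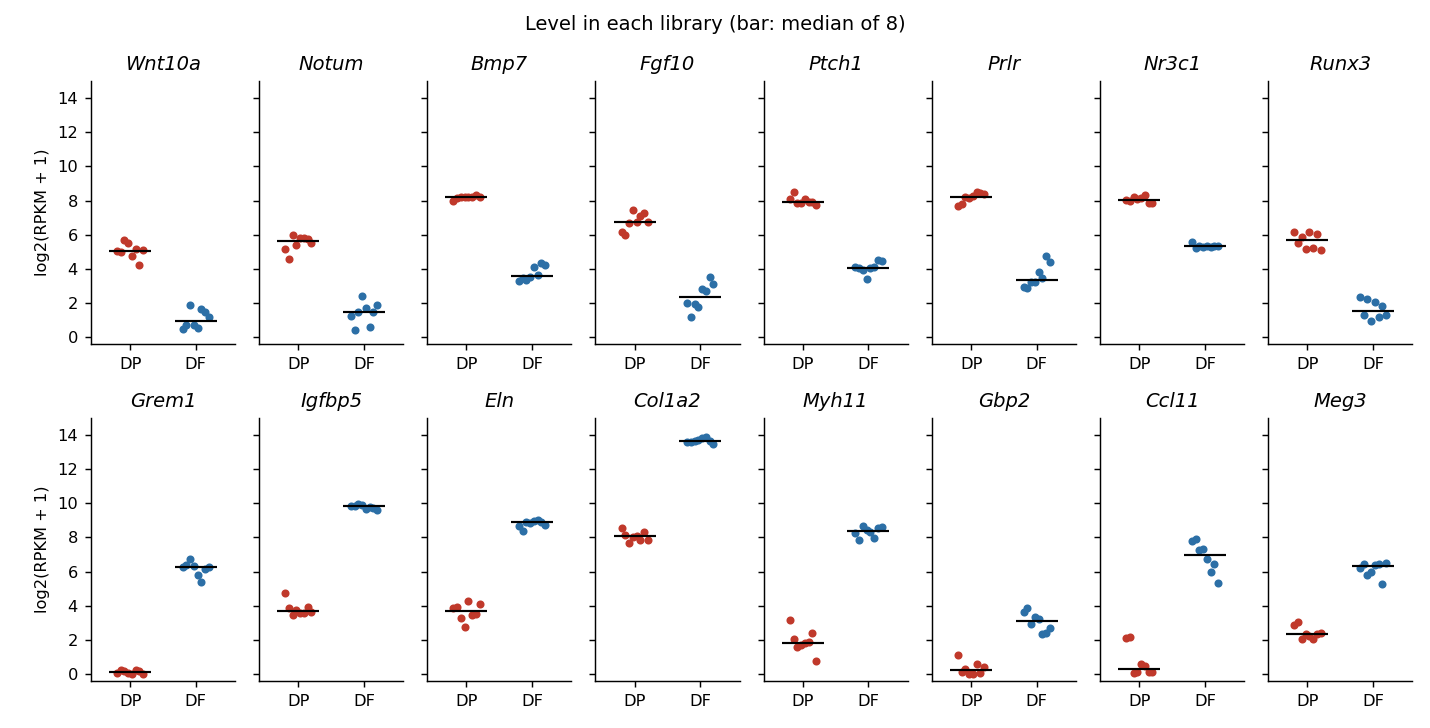
Each dot is one library, on a log2(RPKM + 1) axis, for 16 genes of different roles, with the 8 DP libraries left of the 8 DF libraries and a bar at each median. For all 16 genes the populations do not overlap, which was a condition for drawing a gene. Over all tested genes DP libraries lay above all DF libraries in 22.9% and below them in 6.22%.

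Wnt ligands and the R-spondins that amplify them were higher in DP without exception among those called, with 7 of 14 tested members higher and 0 lower (median log2 difference 1.74, after scaling 0.94). Wnt10a had 17.7, 32.8 and 50.7 RPKM in DP against 0.391, 0.98 and 2.77 RPKM in DF (log2 difference 3.98 ± 0.23 SE, adjusted p = 1.10e-10). Wnt6 had 32.6, 47.7 and 65.6 RPKM in DP against 0.664, 2.18 and 4.304 RPKM in DF (log2 difference 3.94 ± 0.24 SE, adjusted p = 2.08e-10). Ndp encodes norrin, a ligand of the Frizzled4 receptor, with 26.8 RPKM in DP and 2.43 RPKM in DF. None of these ligands overlapped between the populations. Rspo4 and Wnt2b, with 16.4 RPKM in DP and 5.58 RPKM in DF and 2.502 RPKM in DP and 1.98 RPKM in DF, overlapped and were not called. Secreted Wnt inhibitors were higher as well, with 9 of 12 tested members higher and 1 lower (median log2 difference 2.05, after scaling 1.39). Notum, an esterase that removes the lipid from Wnt proteins, had 23.4, 48.2 and 61.7 RPKM in DP against 0.325, 1.79 and 4.403 RPKM in DF (log2 difference 4.10 ± 0.21 SE, adjusted p = 2.56e-11). Sostdc1, which blocks Wnt and BMP signals, had 116 RPKM in DP and 7.04 RPKM in DF, the Wnt-binding protein Wif1 had 101 RPKM in DP and 6.05 RPKM in DF and Sfrp2 had 84.03 RPKM in DP and 6.49 RPKM in DF. Thus agonists and inhibitors of one pathway were both several-fold above DF. Among receptors and feedback targets the list gave 7 of 26 tested members higher and 1 lower (median log2 difference 0.53, after scaling -0.21, of opposite sign), so fewer members moved. Lgr4, the R-spondin receptor, had 39.8 RPKM in DP and 4.87 RPKM in DF, the co-receptor Lrp5 30.3 RPKM in DP and 6.75 RPKM in DF, Fzd3 13.7 RPKM in DP and 2.46 RPKM in DF and the transcription factor Tcf7 118 RPKM in DP and 17.5 RPKM in DF, all higher in DP. Axin2, a general readout of the pathway, had 24.3, 35.2 and 48.9 RPKM in DP against 25.2, 32.1 and 43.8 RPKM in DF (log2 difference 0.19 ± 0.14 SE, adjusted p = 0.252), with overlapping libraries and no call. The direction of Axin2 turned with scaling, to -0.64 after it.

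BMP genes went both ways, with 7 of 24 tested members higher and 7 lower (median log2 difference 0.86, after scaling 0.32). Bmp7 had 251, 293 and 325 RPKM in DP against 8.88, 11.1 and 19.8 RPKM in DF (log2 difference 4.42 ± 0.11 SE, adjusted p = 3.70e-15). The BMP3-related ligand Gdf10 had 30.6, 46.1 and 56.5 RPKM in DP against 0.0291, 1.09 and 3.54 RPKM in DF (log2 difference 4.43 ± 0.23 SE, adjusted p = 2.44e-11). The antagonist Grem1 stood at the other end, with 0, 0.102 and 0.198 RPKM in DP against 41.2, 77.5 and 107 RPKM in DF (log2 difference -6.05 ± 0.16 SE, adjusted p = 4.30e-15). Gremlin transcripts were thus near the floor in every DP library and abundant in every DF library. The antagonists Nbl1 and Fst, with 79.1 RPKM in DP and 79.5 RPKM in DF and 3.01 RPKM in DP and 7.96 RPKM in DF, were not called. The wider family of TGF-beta and activin genes gave 2 of 24 tested members higher and 1 lower (median log2 difference 0.85, after scaling 0.14). Inhba, which makes activin A, had 1497, 1887 and 2347 RPKM in DP against 69.4, 82.9 and 165 RPKM in DF, the receptor Tgfbr1 had 43.7 RPKM in DP and 10.9 RPKM in DF, and the ligand Tgfb3 was lower, with 7.61 RPKM in DP and 16.8 RPKM in DF. Receptors Tgfbr3 and Bmpr1a were present in both, with 56.6 RPKM in DP and 59.8 RPKM in DF and 55.4 RPKM in DP and 36.9 RPKM in DF, and were not called.

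FGF signalling genes were more often higher than lower in DP, on both the ligand and the receptor side, with 9 of 22 tested members higher and 4 lower (median log2 difference 1.70, after scaling 0.97). Fgf10, a mesenchymal signal to the epithelium, had 63.6, 106 and 176 RPKM in DP against 1.28, 4.33 and 10.7 RPKM in DF (log2 difference 4.38 ± 0.20 SE, adjusted p = 4.54e-12). Fgf2 had 34.1 RPKM in DP and 5.69 RPKM in DF. The receptor Fgfr1 had 208, 228 and 256 RPKM in DP against 16.4, 18.8 and 24.8 RPKM in DF (log2 difference 3.47 ± 0.10 SE, adjusted p = 9.27e-15). Fgfr3 had 14.9 RPKM in DP and 0.936 RPKM in DF. All 4 separated the populations completely. Fgf7 and Fgfr2, with 110.0 RPKM in DP and 31.2 RPKM in DF and 336 RPKM in DP and 96.1 RPKM in DF, were called on deposited values only. The list of MAP kinase phosphatases, kinases and feedback genes gave 11 of 36 tested members higher and 5 lower (median log2 difference 0.86, after scaling 0.23). Errfi1, the inhibitor of epidermal growth factor receptors, had 161, 314 and 674 RPKM in DP against 23.2, 34.9 and 45.6 RPKM in DF (log2 difference 3.21 ± 0.25 SE, adjusted p = 7.35e-09). The phosphatases Dusp4 and Dusp10 had 17.5 RPKM in DP and 1.47 RPKM in DF and 31.98 RPKM in DP and 5.44 RPKM in DF. The stress kinase gene Mapk13 had 13.98 RPKM in DP and 1.16 RPKM in DF. Dusp1, with 614 RPKM in DP and 394 RPKM in DF, was not called. Several feedback genes also respond to tissue dissociation. Immediate early and dissociation genes summed to 2711, 3909 and 5908 RPKM in DP against 1278, 1647 and 2222 RPKM in DF, with 7 of 28 tested members higher and 1 lower (median log2 difference 1.18, after scaling 0.34), among them Fosb at 569 RPKM in DP and 111 RPKM in DF, Egr3 at 15.6 RPKM in DP and 1.86 RPKM in DF and Ier2 at 80.2 RPKM in DP and 13.9 RPKM in DF. Their part in the feedback genes was not tested.

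Direct hedgehog targets such as Ptch1 and Hhip were higher in DP, in a list with 5 of 12 tested members higher and 2 lower (median log2 difference 1.63, after scaling 0.84). Ptch1, the receptor and direct target of the pathway, had 214, 243 and 367 RPKM in DP against 9.496, 15.9 and 21.9 RPKM in DF (log2 difference 3.93 ± 0.13 SE, adjusted p = 4.75e-14). Hhip, a surface inhibitor and target, had 53.2 RPKM in DP and 2.04 RPKM in DF. Neither target overlapped between populations. The co-receptor Cdon went the other way, with 0.373, 0.623 and 3.72 RPKM in DP against 37.2, 42.8 and 54.4 RPKM in DF (log2 difference -4.57 ± 0.20 SE, adjusted p = 2.69e-12). The co-receptor Gas1, with 22.4 RPKM in DP and 25.7 RPKM in DF, was not called. Smo, the transducer, had 34.6 RPKM in DP and 12.9 RPKM in DF and passed on deposited values only. The primary cilium, where mammalian hedgehog signalling takes place, gave 5 of 45 tested members higher and 1 lower (median log2 difference 0.995, after scaling 0.35), led by Dync2li1 and Rfx3 with 20.9 RPKM in DP and 2.004 RPKM in DF and 15.6 RPKM in DP and 1.66 RPKM in DF. Notch genes gave 5 of 12 tested members higher and 0 lower (median log2 difference 1.34, after scaling 0.91). The target Hey1 had 23.1, 30.1 and 47.3 RPKM in DP against 0.187, 1.71 and 7.13 RPKM in DF (log2 difference 3.52 ± 0.29 SE, adjusted p = 1.43e-08). The ligand Jag1 had 38.8 RPKM in DP and 6.21 RPKM in DF, and the receptor Notch1 had 18.5 RPKM in DP and 2.35 RPKM in DF. The receptor Notch2 and target Hes1 overlapped, with 16.3 RPKM in DP and 18.6 RPKM in DF and 11.6 RPKM in DP and 10.97 RPKM in DF, and were not called.

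Insulin-like growth factor (IGF) binding proteins were exchanged between the populations, with 7 of 15 tested members higher and 4 lower (median log2 difference 1.42, after scaling 0.60). Igfbp3, which carries and restrains IGF, had 1715, 2281 and 3039 RPKM in DP against 80.9, 123 and 157 RPKM in DF (log2 difference 4.29 ± 0.13 SE, adjusted p = 2.11e-14). Igfbp5 had 10.05, 11.9 and 25.4 RPKM in DP against 788, 897 and 969.8 RPKM in DF (log2 difference -5.97 ± 0.12 SE, adjusted p = 4.40e-16). Igfbp2 had 0, 0.1303 and 3.36 RPKM in DP against 67.1, 139 and 194 RPKM in DF (log2 difference -6.31 ± 0.34 SE, adjusted p = 4.52e-11). Igfbp3 thus stood high in every DP library and Igfbp5 and Igfbp2 in every DF library. Igfbp7, with 295 RPKM in DP and 299 RPKM in DF, overlapped and was not called. Pappa2, a protease that releases IGF by cutting binding proteins 3 and 5, had 85.8, 112 and 150.0 RPKM in DP against 1.83, 3.83 and 6.78 RPKM in DF (log2 difference 4.56 ± 0.17 SE, adjusted p = 4.90e-13). The receptor gene Igf1r had 47.2 RPKM in DP and 17.5 RPKM in DF and passed on deposited values only.

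Several receptors for pituitary, fat and steroid hormones were higher in DP. The list of prolactin, growth hormone and gp130 cytokine receptors gave 7 of 22 tested members higher and 2 lower (median log2 difference 0.83, after scaling 0.21). Prlr, the prolactin receptor, had 204, 298 and 363 RPKM in DP against 6.495, 9.28 and 26.2 RPKM in DF. Lepr, the leptin receptor, had 98.7, 158 and 204 RPKM in DP against 13.3, 14.98 and 18.9 RPKM in DF (log2 difference 3.26 ± 0.14 SE, adjusted p = 1.83e-12). The growth hormone receptor Ghr was lower, with 0.0758, 1.01 and 2.74 RPKM in DP against 12.95, 16.9 and 23.7 RPKM in DF (log2 difference -3.15 ± 0.24 SE, adjusted p = 4.90e-09). The feedback inhibitor Socs3 had 57.5 RPKM in DP and 6.202 RPKM in DF, higher in DP. The shared signalling subunit Il6st had 63.4 RPKM in DP and 83.96 RPKM in DF, not called. Nuclear receptors gave 6 of 32 tested members higher and 2 lower (median log2 difference 0.89, after scaling 0.25). Nr3c1, the glucocorticoid receptor, had 232, 264 and 327 RPKM in DP against 35.9, 38.9 and 47.2 RPKM in DF (log2 difference 2.73 ± 0.08 SE, adjusted p = 2.84e-14). Esr1, the oestrogen receptor, had 42.5, 67.7 and 83.01 RPKM in DP against 8.33, 10.6 and 14.04 RPKM in DF (log2 difference 2.46 ± 0.14 SE, adjusted p = 1.09e-10). Thrb, a thyroid hormone receptor, had 47.2, 56.02 and 83.05 RPKM in DP against 5.34, 6.62 and 8.22 RPKM in DF (log2 difference 2.94 ± 0.12 SE, adjusted p = 1.17e-12). These 3 receptors were higher in each DP library than in any DF library. Rorb, an orphan receptor, had 5.87 RPKM in DP and 0.459 RPKM in DF and was also higher.

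Enzymes that activate or remove hormones and lipid signals differed alongside the receptors. Dio2, the deiodinase that makes active thyroid hormone, had 17.3, 24.01 and 33.9 RPKM in DP against 0.229, 0.887 and 1.95 RPKM in DF (log2 difference 3.77 ± 0.19 SE, adjusted p = 1.95e-11). Hsd11b1, which regenerates active glucocorticoid, had 10.1 RPKM in DP and 0.916 RPKM in DF. Both were higher in DP. Steroid and thyroid hormone metabolism as a whole gave 3 of 22 tested members higher and 1 lower (median log2 difference 0.33, after scaling -0.05, of opposite sign). Retinoid genes split, with 6 of 21 tested members higher and 4 lower (median log2 difference 0.91, after scaling 0.30). Crabp2, which delivers retinoic acid to its receptors, had 98.1, 153 and 189.7 RPKM in DP against 8.01, 11.7 and 28.3 RPKM in DF (log2 difference 3.24 ± 0.19 SE, adjusted p = 1.57e-10). Rarres1, a retinoid-responsive gene, had 116 RPKM in DP and 11.7 RPKM in DF. Aldh1a1, an enzyme that makes retinoic acid, was lower with 0, 0 and 1.702 RPKM in DP against 11.1, 18.4 and 32.1 RPKM in DF (log2 difference -3.97 ± 0.18 SE, adjusted p = 4.16e-12). The adipokine chemerin gene Rarres2 had 3.47 RPKM in DP and 61.1 RPKM in DF. Prostaglandin genes gave 3 of 18 tested members higher and 2 lower (median log2 difference 0.38, after scaling -0.20, of opposite sign). Ptger3, a prostaglandin E2 receptor, had 29.9, 33.8 and 46.5 RPKM in DP against 0.173, 2.42 and 3.74 RPKM in DF (log2 difference 3.71 ± 0.24 SE, adjusted p = 4.52e-10). The synthase Ptges had 29.2 RPKM in DP and 5.84 RPKM in DF, and the importer Slco2a1 had 13.3 RPKM in DP and 1.11 RPKM in DF. Hpgd, the dehydrogenase that inactivates prostaglandins, was lower, with 2.16, 4.18 and 14.99 RPKM in DP against 34.99, 61.9 and 88.4 RPKM in DF (log2 difference -3.32 ± 0.28 SE, adjusted p = 1.43e-08). Synthase, importer and receptor were thus higher, and the degrading enzyme lower, in every DP library than in any DF library.

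G-protein-coupled receptors showed exchanges of the same kind. The list of endothelin, adrenergic and other peptide receptors gave 12 of 37 tested members higher and 11 lower (median log2 difference 0.44, after scaling -0.16, of opposite sign). Mc5r, a melanocortin receptor, had 57.8, 88.7 and 153 RPKM in DP against 0.0628, 5.27 and 8.48 RPKM in DF (log2 difference 4.30 ± 0.35 SE, adjusted p = 9.51e-09). Ackr4, a scavenger of chemokines, had 227, 324 and 407 RPKM in DP against 13.97, 17.9 and 24.04 RPKM in DF (log2 difference 4.04 ± 0.13 SE, adjusted p = 6.01e-14). Cxcr4, the receptor of Cxcl12, had 112 RPKM in DP and 6.41 RPKM in DF. Ednra, the endothelin A receptor, had 123 RPKM in DP and 15.3 RPKM in DF and was higher too. Adra1a, an alpha-1 adrenergic receptor of smooth muscle, had 0, 0.0695 and 0.409 RPKM in DP against 33.7, 39.9 and 56.5 RPKM in DF (log2 difference -5.26 ± 0.16 SE, adjusted p = 3.21e-14), which placed all DP libraries near 0. Cyclic nucleotide genes gave 11 of 44 tested members higher and 5 lower (median log2 difference 0.58, after scaling -0.01, of opposite sign). The phosphodiesterase genes Pde3a and Pde9a had 60.4 RPKM in DP and 5.02 RPKM in DF and 13.96 RPKM in DP and 0.357 RPKM in DF. Corin, a protease that activates natriuretic peptides, had 28.3, 49.4 and 65.6 RPKM in DP against 0.188, 1.102 and 4.77 RPKM in DF (log2 difference 4.40 ± 0.21 SE, adjusted p = 7.49e-12). The transcription factor Creb5 was lower, with 0.422 RPKM in DP and 30.95 RPKM in DF. Adhesion receptors gave 5 of 41 tested members higher and 2 lower (median log2 difference 0.36, after scaling -0.05, of opposite sign). Adgrd1 had 0.0166, 0.172 and 0.6595 RPKM in DP against 55.8, 63.97 and 73.04 RPKM in DF (log2 difference -5.74 ± 0.13 SE, adjusted p = 1.53e-15). Adgre5, Adgrl1 and Adgrl3 were higher, with 64.3 RPKM in DP and 9.06 RPKM in DF, 54.7 RPKM in DP and 12.6 RPKM in DF and 12.6 RPKM in DP and 2.49 RPKM in DF.

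Each transcription factor list in this group had members on both sides. Homeobox genes outside the Hox clusters gave 7 of 42 tested members higher and 5 lower (median log2 difference 0.43, after scaling 0.05). Alx4 had 98.7, 121 and 146 RPKM in DP against 1.56, 4.43 and 11.7 RPKM in DF (log2 difference 4.45 ± 0.23 SE, adjusted p = 2.21e-11). Msx2, a BMP target, had 8.92 RPKM in DP and 0.467 RPKM in DF, and Emx2 was lower, with 1.55 RPKM in DP and 12.2 RPKM in DF. SOX, FOX and T-box factors gave 4 of 34 tested members higher and 1 lower (median log2 difference 0.48, after scaling -0.06, of opposite sign). Sox18, a factor of papilla and vessel, had 67.9, 108 and 170.3 RPKM in DP against 1.34, 2.49 and 7.87 RPKM in DF. Sox11 had 18.5, 24 and 41.4 RPKM in DP against 0.191, 0.497 and 1.14 RPKM in DF (log2 difference 4.13 ± 0.16 SE, adjusted p = 4.30e-13). Zinc-finger factors gave 13 of 51 tested members higher and 4 lower (median log2 difference 0.96, after scaling 0.32). The odd-skipped pair Osr2 and Osr1 was lower, Osr2 with 0.0501, 0.557 and 4.63 RPKM in DP against 88.8, 109.6 and 129 RPKM in DF (log2 difference -5.83 ± 0.20 SE, adjusted p = 1.66e-13) and Osr1 with 0.597 RPKM in DP and 20.97 RPKM in DF. Glis3 was higher, with 44.8 RPKM in DP and 2.19 RPKM in DF. The AP-1, ETS and RUNX list gave 9 of 52 tested members higher and 3 lower (median log2 difference 0.78, after scaling 0.13). All 3 RUNX genes, which encode the DNA-binding subunits of core-binding factor, were higher: Runx3 had 32.9, 51.3 and 70.01 RPKM in DP against 0.971, 1.99 and 4.04 RPKM in DF (log2 difference 4.00 ± 0.24 SE, adjusted p = 1.54e-10), Runx1 33.6 RPKM in DP and 2.33 RPKM in DF and Runx2 16.4 RPKM in DP and 1.22 RPKM in DF. Basic helix-loop-helix genes ran the other way, with 6 of 47 tested members higher and 10 lower (median log2 difference 0.39, after scaling -0.22, of opposite sign). Bhlhe41 and Id2 were lower, with 0.0948 RPKM in DP and 7.37 RPKM in DF and 2.42 RPKM in DP and 19.7 RPKM in DF. Bhlhe40, the close relative of Bhlhe41, was higher, with 116 RPKM in DP and 31.02 RPKM in DF. General mesenchymal factors did not pass both scalings: Prrx1 had 109 RPKM in DP and 95.3 RPKM in DF, Twist1 139.6 RPKM in DP and 48.5 RPKM in DF and Zeb2 151 RPKM in DP and 60.5 RPKM in DF.

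Channels and transporters held 3 of the 15 named genes highest in DP, Slc26a7, Cacng7 and Slc12a1, and none of the 15 lowest. The transport lists leaned both ways. Chloride and bicarbonate transport gave 3 of 30 tested members higher and 1 lower, and sugar, monocarboxylate and nucleoside transporters 7 of 24 and 3. Amino acid transporters gave 3 of 30 and 6, and the sodium pump and cation exchangers 3 of 27 and 4. Zinc, iron and copper handling gave 1 of 33 and 4, and ABC transporters 1 of 29 and 5. Slc26a7, a chloride and bicarbonate exchanger, had 279.5, 358 and 466 RPKM in DP against 6.35, 10.2 and 20.5 RPKM in DF. Slc12a1, the sodium, potassium and chloride cotransporter known from kidney, had 17.6, 103 and 209 RPKM in DP against 0.169, 2.47 and 9.101 RPKM in DF (log2 difference 4.48 ± 0.17 SE, adjusted p = 6.83e-13). Calcium, sodium and TRP channels gave 8 of 33 tested members higher and 2 lower (median log2 difference 0.82, after scaling 0.31). The T-type calcium channel Cacna1g had 165, 185 and 241 RPKM in DP against 8.41, 10.8 and 14.4 RPKM in DF (log2 difference 3.99 ± 0.11 SE, adjusted p = 6.42e-15), and the regulatory subunit gene Cacng7 had 59.7 RPKM in DP and 0.846 RPKM in DF. Carriers of osmolytes were among the higher genes, with the inositol carrier Slc5a3 at 80.4, 140.3 and 220.4 RPKM in DP against 5.41, 8.18 and 15.9 RPKM in DF (log2 difference 3.85 ± 0.13 SE, adjusted p = 1.46e-13) and the taurine carrier Slc6a6 at 104 RPKM in DP and 13.3 RPKM in DF. Potassium channels were more often lower than higher, with 4 of 26 tested members higher and 8 lower (median log2 difference 0.06, after scaling -0.31, of opposite sign) among voltage-gated and calcium-activated ones and 0 of 8 tested members higher and 5 lower (median log2 difference -1.67, after scaling -2.08) among inward rectifiers and two-pore channels. Kcnmb1, the beta subunit of the smooth muscle large-conductance channel, had 0, 0 and 0.0818 RPKM in DP against 2.39, 6.49 and 7.602 RPKM in DF (log2 difference -2.74 ± 0.21 SE, adjusted p = 3.82e-09). The small-conductance channel Kcnn3 was higher, with 6.33, 9.65 and 11.7 RPKM in DP against 0.0735, 0.271 and 0.575 RPKM in DF (log2 difference 3.00 ± 0.18 SE, adjusted p = 1.88e-10). The nerve channel Kcna1, the leak channel Kcnk2 and the sodium channel Scn7a were lower, with 0.304 RPKM in DP and 5.803 RPKM in DF, 0 RPKM in DP and 3.498 RPKM in DF and 0.358 RPKM in DP and 9.45 RPKM in DF. The Schwann cell markers summed above were higher in DF in the same libraries, with Sox10 at 0.0594 RPKM in DP and 4.26 RPKM in DF and Cdh19 at 0.0126 RPKM in DP and 3.96 RPKM in DF, and their part in these neural channels was not tested.

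Several genes that brake the cell cycle were higher in DP, and transcripts of dividing cells were low in both populations. Cdkn1a, the inhibitor p21, had 206, 242 and 259 RPKM in DP against 21.01, 26.04 and 29.9 RPKM in DF (log2 difference 3.16 ± 0.10 SE, adjusted p = 2.84e-14). Gadd45a, a growth-arrest gene, had 35.3, 44.2 and 61.96 RPKM in DP against 0.3997, 1.85 and 4.62 RPKM in DF (log2 difference 4.00 ± 0.21 SE, adjusted p = 2.56e-11). The antiproliferative gene Btg1 had 94.5 RPKM in DP and 18.6 RPKM in DF. The D cyclins were unevenly placed, with Ccnd3 higher at 43.7 RPKM in DP and 6.24 RPKM in DF; Ccnd1 and Ccnd2, looked up after this value was seen, were lower at 11.2 RPKM in DP and 35.1 RPKM in DF and 6.33 RPKM in DP and 32.7 RPKM in DF. Cyclins, inhibitors and quiescence genes together gave 5 of 35 tested members higher and 5 lower (median log2 difference 0.40, after scaling -0.04, of opposite sign). Cell cycle genes gave 0 of 31 tested members higher and 5 lower (median log2 difference -0.22, after scaling -0.46): Mki67 had 0.136, 0.5996 and 1.3 RPKM in DP against 0.945, 3.22 and 4.01 RPKM in DF (log2 difference -1.24 ± 0.23 SE, adjusted p = 1.80e-04) and Rrm2 had 0.484 RPKM in DP and 2.71 RPKM in DF. Mki67 overlapped between the populations despite its call. Bcl2, the survival gene, had 271, 329.7 and 369 RPKM in DP against 14.4, 19.6 and 29.5 RPKM in DF (log2 difference 3.95 ± 0.11 SE, adjusted p = 1.17e-14). The inflammatory caspase genes Casp12, Casp4 and Casp1 were lower, with 0 RPKM in DP and 11.6 RPKM in DF, 0.0982 RPKM in DP and 5.25 RPKM in DF and 3.59 RPKM in DP and 13.5 RPKM in DF.

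Metabolic genes passed the rule in a few pathways. Cholesterol synthesis gave 4 of 24 tested members higher and 0 lower (median log2 difference 1.32, after scaling 0.61), and 17 members passed on deposited values. Sqle, squalene epoxidase, had 16.3, 34.3 and 66.5 RPKM in DP against 3.62, 5.97 and 12.3 RPKM in DF (log2 difference 2.30 ± 0.23 SE, adjusted p = 1.70e-07). Idi1 and Mvd had 4.05 RPKM in DP and 0.461 RPKM in DF and 3.89 RPKM in DP and 0.675 RPKM in DF. Cebpa, a regulator of lipid genes, had 225, 247 and 313 RPKM in DP against 9.303, 14.2 and 23.9 RPKM in DF (log2 difference 4.04 ± 0.14 SE, adjusted p = 1.73e-13). Lipoprotein lipase, Lpl, was lower with 0.299, 0.767 and 2.55 RPKM in DP against 15.8, 22.8 and 31.3 RPKM in DF (log2 difference -3.69 ± 0.20 SE, adjusted p = 4.45e-11). One-carbon, serine and polyamine genes gave 3 of 42 tested members higher and 6 lower (median log2 difference 0.06, after scaling -0.37, of opposite sign). Among the lower members were Aldh1l2 and Mthfd2, mitochondrial folate enzymes, and Pycr1, a proline enzyme, with Aldh1l2 at 1.17, 2.47 and 3.49 RPKM in DP against 32.5, 38.3 and 46.3 RPKM in DF (log2 difference -3.55 ± 0.15 SE, adjusted p = 2.67e-12), Pycr1 at 1.13 RPKM in DP and 14.8 RPKM in DF and Mthfd2 at 1.94 RPKM in DP and 10.6 RPKM in DF. Proline made by Pycr1 is a main building block of collagen. Oxidative phosphorylation gave 0 of 70 tested members higher and 1 lower (median log2 difference 0.36, after scaling -0.42, of opposite sign), glycolysis 2 of 29 tested members higher and 2 lower (median log2 difference 0.50, after scaling -0.10, of opposite sign), and Gapdh, with 82.9 RPKM in DP and 68.7 RPKM in DF, was not called. Chromatin regulators and splicing factors depended on scaling: 52 of 89 and 53 of 74 passed as higher on deposited values, and 8 and 5 on both. Hdac4 with 31.1 RPKM in DP and 6.66 RPKM in DF, Setdb1 with 20.9 RPKM in DP and 4.06 RPKM in DF and Srsf7 with 71.8 RPKM in DP and 16.9 RPKM in DF were among those higher on both.

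The fibrillar collagens made up a large part of the DF transcriptome. They summed to 1279.5, 1601 and 2319 RPKM in DP against 37357, 43766 and 49526 RPKM in DF, or 0.467 to 0.836% and 14.8 to 18.7% of the total, with 1 of 9 tested members higher and 6 lower (median log2 difference -2.33, after scaling -2.91). Col1a2 had 203, 267 and 371 RPKM in DP against 11299.5, 12792 and 14869.5 RPKM in DF (log2 difference -5.60 ± 0.11 SE, adjusted p = 4.40e-16). Col3a1 had 622, 910.0 and 1474 RPKM in DP against 6564, 8431 and 9648 RPKM in DF (log2 difference -3.20 ± 0.14 SE, adjusted p = 3.44e-12), so it remained at a high level in DP, where its median exceeded that of Col1a1 at 322 RPKM in DP and 21549.6 RPKM in DF. The nucleating chain Col5a1 had 34.1 RPKM in DP and 323 RPKM in DF. Col11a1, with 11.2 RPKM in DP and 6.13 RPKM in DF, was not called. Other collagens gave 2 of 23 tested members higher and 5 lower (median log2 difference -0.29, after scaling -0.91). The membrane collagens Col13a1 and Col23a1 were higher in DP, with 43.6, 58.2 and 76.1 RPKM in DP against 3.09, 3.58 and 6.98 RPKM in DF and 69.9, 90.2 and 120.3 RPKM in DP against 4.71, 7.402 and 10.6 RPKM in DF. Col18a1 and Col4a5 were lower, with 1.26 RPKM in DP and 29.3 RPKM in DF and 0.132 RPKM in DP and 9.97 RPKM in DF. Col6a3 and Col6a1 were abundant in both, with 245 RPKM in DP and 134 RPKM in DF and 117 RPKM in DP and 236 RPKM in DF, and were not called.

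Genes for proteins that organise collagen and elastic fibres were often lower in DP as well. Small leucine-rich proteoglycans, which regulate fibril growth, gave 0 of 16 tested members higher and 12 lower (median log2 difference -1.58, after scaling -2.42). Dcn, decorin, had 13.2, 25.2 and 92.3 RPKM in DP against 2089, 2620.0 and 3149 RPKM in DF, and Prelp had 3.898, 6.43 and 10.1 RPKM in DP against 109, 140.3 and 166 RPKM in DF (log2 difference -4.29 ± 0.17 SE, adjusted p = 9.21e-13). Ogn, osteoglycin, had 1.49 RPKM in DP and 43.2 RPKM in DF and biglycan, Bgn, had 443 RPKM in DP and 1302 RPKM in DF. Elastic fibre genes gave 0 of 17 tested members higher and 8 lower (median log2 difference -0.91, after scaling -1.75). Eln, elastin, had 5.75, 11.9 and 18.6 RPKM in DP against 334, 467 and 524 RPKM in DF (log2 difference -5.15 ± 0.16 SE, adjusted p = 3.82e-14), Efemp1, fibulin-3, had 0.126, 0.802 and 4.63 RPKM in DP against 71.8, 100.1 and 209 RPKM in DF (log2 difference -5.80 ± 0.23 SE, adjusted p = 6.61e-13), and Fbn1, fibrillin-1, had 51.3 RPKM in DP and 400.5 RPKM in DF. The populations did not overlap for any of these named genes. Mfap2 and Fbln2, with 86.5 RPKM in DP and 132 RPKM in DF and 144 RPKM in DP and 70.7 RPKM in DF, did not pass. Collagen processing gave 2 of 27 tested members higher and 10 lower (median log2 difference -0.77, after scaling -1.60). Lox, the crosslinking oxidase, had 2.499, 4.85 and 13.6 RPKM in DP against 67.6, 88.3 and 115 RPKM in DF (log2 difference -3.81 ± 0.22 SE, adjusted p = 1.16e-10). Pcolce2, an enhancer of procollagen cleavage, had 0.276 RPKM in DP and 170.5 RPKM in DF. The lysyl hydroxylase gene Plod2 was the reverse, with 24.4, 30.4 and 40.3 RPKM in DP against 0.6602, 2.26 and 8.67 RPKM in DF (log2 difference 3.23 ± 0.27 SE, adjusted p = 1.44e-08). Matricellular proteins gave 3 of 25 tested members higher and 9 lower (median log2 difference -0.29, after scaling -0.57), with Sparc at 264, 358 and 529.5 RPKM in DP against 19361, 20656 and 23738 RPKM in DF (log2 difference -5.86 ± 0.13 SE, adjusted p = 1.32e-15), fibronectin, Fn1, at 9.76 RPKM in DP and 393 RPKM in DF, Tgfbi at 4.37 RPKM in DP and 269 RPKM in DF and tenascin-X, Tnxb, at 0.736 RPKM in DP and 42.05 RPKM in DF. Dpt, dermatopontin, was an abundant member that did not pass, with 316, 528 and 653 RPKM in DP against 289, 317 and 405 RPKM in DF and no call.

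Basement membrane and adhesion genes were split. Laminins and nidogens gave 4 of 14 tested members higher and 3 lower (median log2 difference 0.52, after scaling 0.14). Lama2 had 149, 176 and 198 RPKM in DP against 32.8, 35.4 and 37.2 RPKM in DF (log2 difference 2.28 ± 0.08 SE, adjusted p = 2.55e-13), Lamc3 had 53.7 RPKM in DP and 4.75 RPKM in DF and agrin, Agrn, had 28.7 RPKM in DP and 4.77 RPKM in DF, all higher. Nephronectin, Npnt, was lower, with 0.253, 0.418 and 0.948 RPKM in DP against 13.99, 26.7 and 32.4 RPKM in DF (log2 difference -4.08 ± 0.17 SE, adjusted p = 1.41e-12). Integrins gave 1 of 18 tested members higher and 5 lower (median log2 difference -0.27, after scaling -0.999). Itga8, the partner that binds nephronectin, was lower with 0.643, 1.28 and 3.74 RPKM in DP against 10.5, 16.6 and 24.5 RPKM in DF (log2 difference -2.82 ± 0.24 SE, adjusted p = 1.70e-08). The collagen-binding Itga11 had 0.655 RPKM in DP and 9.23 RPKM in DF; the laminin-binding Itga6 was higher, with 37.3 RPKM in DP and 6.95 RPKM in DF. Nephronectin and its receptor subunit were thus both lower. Itgb1, their common partner, had 106 RPKM in DP and 118 RPKM in DF and was not called. Cadherins gave 1 of 11 tested members higher and 3 lower (median log2 difference -0.37, after scaling -0.77), with Cdh11 higher at 162, 193 and 246 RPKM in DP against 24.1, 29.4 and 32.8 RPKM in DF (log2 difference 2.72 ± 0.10 SE, adjusted p = 1.80e-13) and Cdh4 lower at 0.682, 1.22 and 2.66 RPKM in DP against 44.9, 56.7 and 65.4 RPKM in DF (log2 difference -4.54 ± 0.16 SE, adjusted p = 2.40e-13). Neural and immunoglobulin adhesion molecules gave 7 of 31 tested members higher and 6 lower (median log2 difference 0.52, after scaling 0.06). Lrrn1 and Cntn1 were higher, with 187 RPKM in DP and 9.13 RPKM in DF and 20.9 RPKM in DP and 1.02 RPKM in DF. Mcam and Chl1 were lower, with 0.723 RPKM in DP and 38.6 RPKM in DF and 0.377 RPKM in DP and 10.04 RPKM in DF.

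Axon guidance ligands had many members on both sides, with 10 of 36 tested members higher and 8 lower (median log2 difference 0.39, after scaling -0.35, of opposite sign). The class 3 semaphorins Sema3b, Sema3c and Sema3a were lower: Sema3b had 0.457, 1.41 and 2.75 RPKM in DP against 64.3, 72.6 and 85.7 RPKM in DF (log2 difference -4.99 ± 0.17 SE, adjusted p = 1.30e-13), Sema3c 0.2 RPKM in DP and 26.5 RPKM in DF and Sema3a 0.197 RPKM in DP and 18.6 RPKM in DF. Ntn1, netrin-1, had 0.412, 0.882 and 2.09 RPKM in DP against 14.3, 20.2 and 32.2 RPKM in DF (log2 difference -3.52 ± 0.15 SE, adjusted p = 1.43e-12). The semaphorin co-receptor Nrp1 was lower with 0.709 RPKM in DP and 8.33 RPKM in DF. The netrin receptor Unc5c was higher with 6.94, 11.01 and 21.04 RPKM in DP against 0.384, 0.938 and 2.13 RPKM in DF (log2 difference 2.70 ± 0.19 SE, adjusted p = 1.81e-09). Receptors together gave 7 of 24 tested members higher and 4 lower (median log2 difference 0.81, after scaling 0.04). Slit3 and Slit2, with 47.5 RPKM in DP and 50.1 RPKM in DF and 31.01 RPKM in DP and 15.3 RPKM in DF, overlapped and were not called.

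Proteases and their inhibitors were more often lower than higher in DP. Metalloproteases and inhibitors gave 3 of 25 tested members higher and 11 lower (median log2 difference -0.44, after scaling -1.19). Mmp3, stromelysin-1, had 0, 0.0285 and 0.3005 RPKM in DP against 36.2, 54.5 and 64.3 RPKM in DF (log2 difference -5.62 ± 0.16 SE, adjusted p = 1.01e-14). Mmp27 had 0, 0.0174 and 1.201 RPKM in DP against 24.3, 35.7 and 53.1 RPKM in DF (log2 difference -4.88 ± 0.21 SE, adjusted p = 2.69e-12). Both were near 0 in every DP library. The inhibitor Timp3 had 8.74 RPKM in DP and 101 RPKM in DF. Mmp14, a membrane protease, had 124 RPKM in DP and 199.8 RPKM in DF and was not called on both scalings. ADAMTS proteases gave 3 of 18 tested members higher and 7 lower (median log2 difference -0.34, after scaling -0.97), with Adamts15 and Adamts4 higher at 30.2, 48.7 and 68.7 RPKM in DP against 2.28, 4.37 and 6.203 RPKM in DF and 18.7 RPKM in DP and 2.47 RPKM in DF, and Adamts8 lower at 0.03099 RPKM in DP and 9.45 RPKM in DF. Serpins gave 1 of 11 tested members higher and 7 lower (median log2 difference -1.18, after scaling -1.69). Serpina3n had 0.0216, 0.641 and 3.204 RPKM in DP against 79.99, 95.8 and 112 RPKM in DF (log2 difference -5.78 ± 0.26 SE, adjusted p = 3.44e-12). Serping1, the complement C1 inhibitor, had 60.9, 80.9 and 99.1 RPKM in DP against 384, 420.0 and 546 RPKM in DF (log2 difference -2.48 ± 0.09 SE, adjusted p = 1.73e-13). Serpina3n has close paralogs in the mouse. How reads shared between copies were counted is not given.

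Smooth muscle genes were among the lists most often lower in DP, with 1 of 27 tested members higher and 18 lower (median log2 difference -2.74, after scaling -3.30). Acta2, smooth muscle actin, had 0.699, 2.18 and 8.35 RPKM in DP against 258, 355 and 467 RPKM in DF. Myh11, its myosin heavy chain, had 0.717, 2.59 and 7.82 RPKM in DP against 226, 329 and 400.3 RPKM in DF (log2 difference -6.41 ± 0.24 SE, adjusted p = 4.51e-13). Mylk, the kinase that starts contraction, had 1.67, 2.64 and 5.45 RPKM in DP against 192, 249 and 337 RPKM in DF (log2 difference -6.09 ± 0.15 SE, adjusted p = 2.05e-15). Desmin, Des, had 0.0559, 0.524 and 1.94 RPKM in DP against 81.98, 116 and 143 RPKM in DF (log2 difference -6.19 ± 0.19 SE, adjusted p = 2.40e-14). Every DF library was far above every DP library for these genes, and the highest DP value of Acta2 belonged to zone 1. General actin-binding genes Cald1 and Flna, with 142 RPKM in DP and 209.7 RPKM in DF and 65.2 RPKM in DP and 114 RPKM in DF, were not called. The pericyte and vessel smooth muscle markers, which share several of these genes, had a higher sum in DF in the same libraries. Among them Ndufa4l2 had 4.22 RPKM in DP and 126 RPKM in DF, whereas Cspg4 had 22.03 RPKM in DP and 10.6 RPKM in DF and was not called. The part of such cells in the contractile genes was not tested.

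Interferon and antigen presentation genes were more often lower than higher in DP, at low to moderate levels. Interferon response genes gave 1 of 29 tested members higher and 14 lower (median log2 difference -0.97, after scaling -1.56), and 20 were lower after scaling. Gbp2 and Iigp1, interferon-induced GTPases of gene families with near-identical copies, had 0, 0.162 and 1.13 RPKM in DP against 4.11, 7.58 and 13.6 RPKM in DF (log2 difference -2.74 ± 0.23 SE, adjusted p = 1.25e-08) and 0, 0.124 and 0.555 RPKM in DP against 4.16, 6.36 and 10.1 RPKM in DF (log2 difference -2.70 ± 0.21 SE, adjusted p = 7.49e-09). Ifit3, an antiviral RNA-binding protein, had 0, 0.0335 and 0.135 RPKM in DP against 0.874, 3.11 and 11 RPKM in DF (log2 difference -2.06 ± 0.29 SE, adjusted p = 6.95e-06). DP libraries were at or near 0 for all 3. Irf8, a factor best known from myeloid cells, was the single member higher, with 10.5, 33.1 and 53.7 RPKM in DP against 0.413, 2.11 and 2.66 RPKM in DF (log2 difference 3.28 ± 0.25 SE, adjusted p = 4.30e-09). Antigen presentation gave 0 of 20 tested members higher and 9 lower (median log2 difference -0.86, after scaling -1.54). The immunoproteasome subunit genes Psmb9 and Psmb8 had 0.106, 3.38 and 8.49 RPKM in DP against 23.6, 29.9 and 50.6 RPKM in DF (log2 difference -3.34 ± 0.45 SE, adjusted p = 5.15e-06) and 3.37 RPKM in DP and 19.3 RPKM in DF. Tapbp, tapasin, had 5.51 RPKM in DP and 20.4 RPKM in DF. The class I gene H2-K1, with 44.5 RPKM in DP and 82.8 RPKM in DF, did not reach a difference of 1 on deposited values. Macrophage and dendritic markers overlapped between the populations, as given above. Of their defining genes Ptprc was at most 1.49 RPKM in DP and 0.592 RPKM in DF. Csf1r was lower in DP, with 0.522 RPKM in DP and 10.3 RPKM in DF.

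The interferon-stimulated response element, the motif bound by interferon regulatory factors, was searched in the promoters of these genes because it is known to drive many of them. The letters searched were GAAA, then NN for any bases, then GAAA, on both strands in the 250 bases before the RefSeq transcription start (GRCm38.p6). A match was present in 3.04% of all 27025 promoters and 2.45% of those of 10445 tested genes with a promoter. It was present in 8 of 700 promoters of genes higher in DP (1.14%) and 43 of 755 of genes lower in DP (5.70%). Of the 29 tested interferon genes 21 had a promoter in the table. The match was present in 7 of the 9 lower genes with a promoter and in 3 of the 11 that were not called. Stretches of 60 bases around the match, or 59 where the start of the gene cut them, are printed 5′ to 3′ in the direction of the gene with the first match in capitals, for 6 genes lower in DP and then 2 of the interferon list that were not called. Isg15 held 3 matches and Ifit3 and Gbp3 held 2 each, and only the first is marked. The genes were chosen after their values were seen, and a match printed as TTTC, NN and TTTC lies on the opposite strand.
Ifit3: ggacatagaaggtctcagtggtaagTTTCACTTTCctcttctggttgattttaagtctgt
Gbp2: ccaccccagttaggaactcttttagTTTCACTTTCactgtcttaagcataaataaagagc
Gbp7: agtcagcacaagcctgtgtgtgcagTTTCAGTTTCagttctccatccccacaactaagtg
Igtp: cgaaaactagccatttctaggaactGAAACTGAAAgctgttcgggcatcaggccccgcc
Isg15: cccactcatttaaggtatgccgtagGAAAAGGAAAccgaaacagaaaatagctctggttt
B2m: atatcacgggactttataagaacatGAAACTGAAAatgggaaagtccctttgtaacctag
Gbp3: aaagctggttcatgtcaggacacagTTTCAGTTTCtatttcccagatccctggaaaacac
Stat2: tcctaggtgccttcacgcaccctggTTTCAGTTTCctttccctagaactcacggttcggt
The stretches of Ifit3 (chr19:34583348-34583407), Gbp2 (chr3:142620579-142620638), Gbp7 (chr3:142530258-142530317), Igtp (chr11:58199497-58199555), B2m (chr2:122147523-122147582), Gbp3 (chr3:142559974-142560033) and Stat2 (chr10:128270251-128270310) lie on the plus strand and that of Isg15 (chr4:156200862-156200921) on the minus strand. Igtp had 0.339, 3.28 and 5.65 RPKM in DP against 3.17, 10.1 and 17.3 RPKM in DF (log2 difference -1.26 ± 0.27 SE, adjusted p = 5.09e-04) and the class I light chain B2m had 201, 251 and 338 RPKM in DP against 516, 751 and 929.6 RPKM in DF (log2 difference -1.49 ± 0.12 SE, adjusted p = 8.14e-09). Isg15, a ubiquitin-like modifier, had 1.13 RPKM in DP and 4.52 RPKM in DF, and Gbp7 had 2.11 RPKM in DP and 7.57 RPKM in DF. The genes with a match and no call were Gbp3, at 0, 0.03702 and 6.14 RPKM in DP against 0.267, 1.63 and 3.58 RPKM in DF, and Stat2, at 5.97, 7.99 and 14.4 RPKM in DP against 6.49, 10.2 and 13.03 RPKM in DF. Matches were thus present with and without a call, and a match describes letters, not binding. The CArG box, the element bound by serum response factor in muscle genes, was searched in the same way. It was present in 1.4% of all promoters, in 1 of 14 lower smooth muscle genes with a promoter and in 2 of 8 that were not called.

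Chemokines and complement genes were likewise more often lower than higher. Chemokines gave 1 of 14 tested members higher and 7 lower (median log2 difference -1.12, after scaling -1.49). Ccl11, eotaxin, had 0.0359, 0.233 and 3.43 RPKM in DP against 39.6, 128 and 239 RPKM in DF (log2 difference -6.13 ± 0.21 SE, adjusted p = 1.62e-13). Ccl7 had 0, 0 and 0.721 RPKM in DP against 6.91, 16.1 and 33.8 RPKM in DF (log2 difference -3.94 ± 0.27 SE, adjusted p = 1.09e-09). Ccl8, which overlapped slightly, had 2.07 RPKM in DP and 20.6 RPKM in DF. Cxcl14, a homeostatic skin chemokine, was higher, with 4.56, 13.6 and 16.3 RPKM in DP against 0.0399, 0.583 and 3.099 RPKM in DF (log2 difference 2.68 ± 0.28 SE, adjusted p = 1.93e-07). Complement and coagulation genes gave 4 of 27 tested members higher and 8 lower (median log2 difference -0.34, after scaling -0.85). C3, the central complement component, had 0.168, 0.379 and 2.44 RPKM in DP against 42.7, 76.97 and 137 RPKM in DF (log2 difference -5.56 ± 0.23 SE, adjusted p = 1.87e-12), and the decay-accelerating factor Cd55 had 6.71 RPKM in DP and 34.9 RPKM in DF. Masp1, which starts the lectin pathway, was higher with 56.6 RPKM in DP and 7.48 RPKM in DF.

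Fibroblast progenitor and lineage genes were more often lower in DP, with 3 of 33 tested members higher and 16 lower (median log2 difference -0.86, after scaling -1.46). Cd34, a surface marker of reticular and adventitial fibroblasts, had 0.309, 0.918 and 6.12 RPKM in DP against 129, 199 and 281 RPKM in DF. Ly6a, which encodes the surface protein Sca1 and has close copies in its family, had 1.39, 3.396 and 11.8 RPKM in DP against 234, 310.3 and 379.9 RPKM in DF (log2 difference -6.08 ± 0.24 SE, adjusted p = 6.40e-13). Thy1, a general fibroblast surface marker, had 33.3, 44.99 and 71.05 RPKM in DP against 288, 388 and 541 RPKM in DF (log2 difference -3.04 ± 0.11 SE, adjusted p = 3.68e-13) and so stayed well above 0 in DP. S100a4, the fibroblast-specific protein gene, had 569 RPKM in DP and 391 RPKM in DF and was not called. Genes listed as imprinted gave 2 of 29 tested members higher and 6 lower (median log2 difference 0.23, after scaling -0.48, of opposite sign). Dcn, counted above with the proteoglycans, is among the lower members, and imprinting in these cells was not tested. The non-coding RNAs Meg3 and Rian of the same imprinted cluster were both lower: Meg3 had 3.15, 4.03 and 7.43 RPKM in DP against 38.3, 77.9 and 88.05 RPKM in DF (log2 difference -3.69 ± 0.16 SE, adjusted p = 3.24e-12) and Rian had 1.24, 2.49 and 3.85 RPKM in DP against 51.04, 74.3 and 91.5 RPKM in DF (log2 difference -4.38 ± 0.13 SE, adjusted p = 2.40e-14). Rasgrf1, a paternally expressed exchange factor, was higher, with 8.297, 13.2 and 21.97 RPKM in DP against 0.172, 0.742 and 1.26 RPKM in DF (log2 difference 3.17 ± 0.22 SE, adjusted p = 1.65e-09).

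The machinery of secretion and of the lysosome tended to be lower in DP after scaling. Secretory pathway genes gave 0 of 52 tested members higher and 8 lower (median log2 difference -0.29, after scaling -1.14). After scaling 28 were lower. Creb3l1, a transcription factor of collagen-secreting cells, had 8.84, 19.1 and 30.3 RPKM in DP against 232, 299 and 370.1 RPKM in DF (log2 difference -3.97 ± 0.19 SE, adjusted p = 7.91e-12). The coat subunit gene Copz2 had 10.7, 30.2 and 63.1 RPKM in DP against 111, 157 and 184 RPKM in DF (log2 difference -2.32 ± 0.24 SE, adjusted p = 2.63e-07). Sec24d, which loads large cargo such as procollagen, had 12.7 RPKM in DP and 42.6 RPKM in DF, and the retrieval receptor Kdelr2 had 70.9 RPKM in DP and 220.2 RPKM in DF. None of the 4 overlapped between populations. Lysosomal genes gave 1 of 51 tested members higher and 7 lower (median log2 difference -0.19, after scaling -0.93), with 22 lower after scaling, among them the collagen-degrading cathepsin K, Ctsk, at 18.2 RPKM in DP and 134 RPKM in DF and Ctsh at 7.56 RPKM in DP and 86.2 RPKM in DF. Scarb2, a lysosomal membrane protein, was the single higher member, with 46.3 RPKM in DP and 7.38 RPKM in DF.

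Some genes were on in DF and near 0 in DP, and none the other way round. At 5 RPKM or more in all 8 DF libraries and under 0.5 RPKM in all 8 DP libraries there were 15 genes (0.108% of those tested), and no gene met the reverse rule. Cib3, a calcium- and integrin-binding protein gene, was listed at 0 in all DP libraries, against 13.5, 33.4 and 54.7 RPKM in DF. Mybpc1, a myosin-binding protein, had 0, 0.0108 and 0.193 RPKM in DP against 11.7, 24.7 and 34.1 RPKM in DF. Sh3bgr had 0, 0 and 0.3496 RPKM in DP against 7.12, 19.2 and 54.9 RPKM in DF. The phosphatase subunit gene Ppp2r2c had 0, 0.0277 and 0.0821 RPKM in DP against 18.9, 22.3 and 31.9 RPKM in DF. Phex, a peptidase of phosphate balance, the transcription factor Creb3l3 and the receptor Tnfrsf26 met the rule too, with medians of 0.0766 RPKM in DP and 11.9 RPKM in DF, 0 RPKM in DP and 11.7 RPKM in DF and 0.0217 RPKM in DP and 11.1 RPKM in DF. Of genes higher in DP, Epn3, an endocytic adaptor, came near the rule with 25.1, 31.99 and 56.3 RPKM in DP against 0.0899, 0.305 and 0.949 RPKM in DF.

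The lists of ribosomal proteins, Hox genes and constitutive proteasome subunits had no member that passed both scalings. Of 72 tested ribosomal protein genes none was called on both scalings, though 45 passed as higher on deposited values, with a list median of 1.05 and 0.22 after scaling. Hox genes, which record body position, gave 0 of 27 tested members higher and 0 lower (median log2 difference 0.50, after scaling 0.02); Hoxc8 had 21.9, 50.8 and 70.6 RPKM in DP against 7.63, 18.4 and 46.7 RPKM in DF and Hoxc6 had 27.05, 48.3 and 55.7 RPKM in DP against 7.13, 12.7 and 23.9 RPKM in DF, and 7 Hox genes passed on deposited values only. Constitutive proteasome subunits, a list without the immunoproteasome genes Psmb8 and Psmb9, gave 0 of 37 tested members higher and 0 lower (median log2 difference 0.82, after scaling 0.01). Of 368 genes with means of at least 50 RPKM in both populations, 48 were called on both scalings. The genes of this kind whose differences lay closest to 0 between the scalings included Rps29, Arpc2, Myl12b, Atp5mc3, Ftl1, Ltbp1, H2az1, Ptp4a2 and Atp5pd. Rps29, a small ribosomal subunit protein, had 231, 314 and 544 RPKM in DP against 196, 229 and 282 RPKM in DF, with a difference of 0.43 on deposited values and -0.42 after scaling. The choice of genes midway between the scalings fixes this change of sign.

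The contrast was present in each of the 4 zones. Zone 1 gave 3177 higher and 964 lower genes on deposited values (22.8% and 6.92%), zone 2 gave 3324 and 940 (23.9% and 6.75%), zone 3 gave 3953 and 864 (28.4% and 6.21%) and zone 4 gave 3134 and 905 (22.5% and 6.5%). Of the 2040 genes called on both scalings 2018 had the same sign in all 4 zones and 1837 in all 8 pairs of libraries matched by zone and replicate number. These counts describe genes chosen on the average over the same zones. A test of the population by zone difference found 0 of 13922 genes at an adjusted p under 0.05 with limma on either scaling, and 799 at an unadjusted p under 0.05 on deposited values. Single genes still varied, by a median of 0.96 between the highest and lowest zone. Pcolce2 differed by -4.93 in zone 1, -7.33 in zone 2, -6.82 in zone 3 and -6.90 in zone 4, and Acta2 by -5.17, -7.13, -6.61 and -7.25. The zone 1 differences of both were the smallest. Zone 1 replicate 1 was the DP library with the highest sum of the 15 genes lowest in DP.

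**Figure D4:**
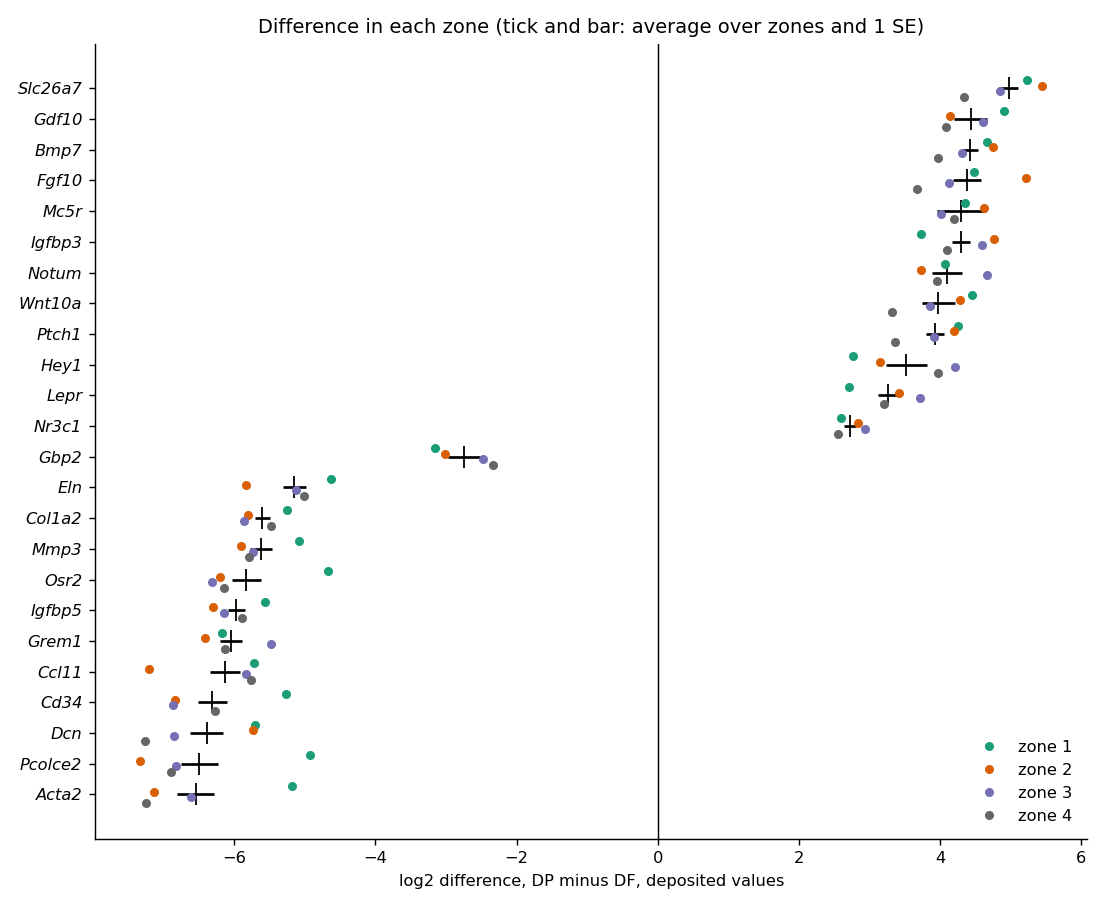
Points give the log2 difference, DP minus DF, on deposited values in zones 1 to 4 for 24 genes, and the vertical tick gives the average over zones with a horizontal bar of 1 SE. All points of a gene lie on one side of 0, which was a condition for drawing it, and those of Acta2 and Pcolce2 reach closest to 0 in zone 1.

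Set against the other sorted populations, genes higher in DP were often at their highest mean in DP, and genes lower in DP often at their highest in DF. Of the 999 genes higher in DP 654 had their highest mean in DP (65.5%) and 144 in the population labelled HGSC (14.4%), against 20.6% and 22.5% of all tested genes. Of the 1041 lower genes 516 were highest in DF (49.6%) and 274 in the population labelled Neg (26.3%), against 6.93% and 12.9% of all tested genes. The choice of genes on DP and DF levels raises both shares, so they are descriptions.

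**Figure D5:**
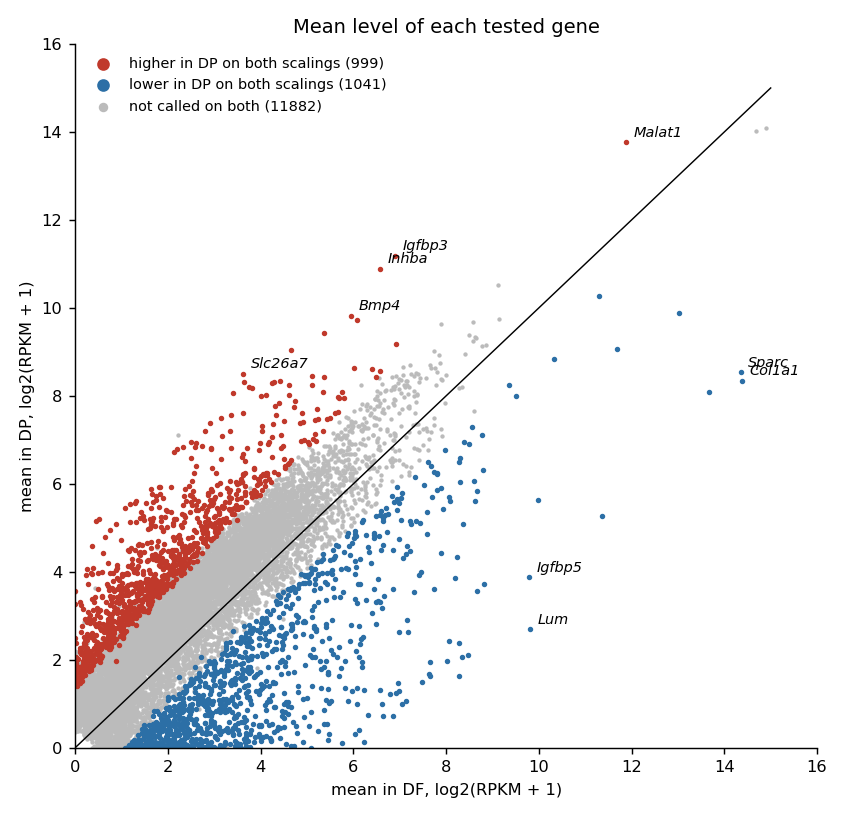
Each dot is a tested gene at its mean in DP (vertical axis) and in DF (horizontal axis), both on log2(RPKM + 1) axes, coloured by its call on both scalings. The 999 higher genes lie above the diagonal and the 1041 lower genes below it, and the extreme DF collagens and Sparc lie at the far right.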

How the data were processed

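RNA of sorted cells (6 ng per library, RNA integrity number of at least 8.8, per the labels' protocols) was amplified with the NuGEN Ovation RNA-seq V2 kit, and 100 ng of cDNA went into Ovation Ultralow libraries read on a HiSeq 2000. The authors deposited one table of RPKM values for 24062 genes and 56 libraries. The submitters' processing notes list the mm10 build and, as tools, DESeq2, edgeR, limma, featureCounts and STAR 2.4.0. How shared or antisense reads were counted is not given in the sources used here. RPKM values are shares of a library, so a few abundant genes shift all others. Low RPKM values were whole multiples of 1 read within 0.02 reads in 22232 of 22233 genes above 0, which gave the depth of each library. These were 99.9955% of such genes, whole in every library, and limma-voom on these reads called 3961 genes.

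The 8 DP and 8 DF libraries were taken by the labels and compared within the 4 zones. log2(RPKM + 1) was fitted with limma 3.58.1 in R 4.3.3 with terms for zone and population and an abundance trend, on genes with at least 1 RPKM in at least 2 of 16 libraries, and p-values were adjusted by Benjamini-Hochberg over all 13922 genes. The fit was repeated after dividing by median-of-ratios factors, which were 1.25 to 1.41 in DP and 0.706 to 0.798 in DF. A further fit tested whether the difference varied with zone. In data simulated from these libraries for the comparison of DP with DF over 13922 genes, 95% of genes changed by 1.5 on the log2 scale and 100% of genes changed by 3 were called, with 4 false calls. In the simulated population by zone test over 13922 genes, 57% of genes changed by 3 in zone 2 were found, with 3 false calls. The simulated noise was independent between genes, with no shift in composition between populations, and only the fit without rescaling was run. These rates therefore do not measure the errors of the rule that needs both scalings. Genes detected per library were compared by an exact permutation test, which did not take zone into account, with scipy 1.17.1.

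The comparison, the gene lists and the families were chosen with earlier results of these data known, so list counts are descriptions beside the shares over all genes and were given no test. Named genes were, in each direction, the 15 with the largest difference called on both scalings with a mean of at least 10 RPKM in the higher population and one sign in all 8 pairs; the 10 most abundant of each population; in each list up to 4 called members with a mean of at least 2 RPKM and up to 2 others with the highest mean; genes at 5 RPKM or more in all libraries of one population and under 0.5 RPKM in all of the other; and the 10 genes of at least 50 RPKM in both with the smallest difference. Predicted genes and small RNA rows were left out of that rule, and some genes that it names are not reported here. Rn45s, Mir6236, Ccnd1, Ccnd2, B2m, Gbp3, Gbp7, Igtp, Isg15 and Stat2 were named after their values were seen. Promoter sequences are from RefSeq on GRCm38.p6. Alternatives were other pseudocounts, filters, scalings, covariates and minimum differences, leaving out each library or zone, and, added after the data were seen, library totals without Rn45s.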

Additional observations from a re-analysis of the deposited data

Results flagged for a closer look

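In 560 groups of 8 libraries (276 named genes and 4 measures of a library, in DP and in DF), the library farthest out was tested by its gap to the nearest of the others, divided by the range of the group. Genes were taken on the log2(RPKM + 1) scale and the 4 measures of a library on their own scale. The gap passed Dixon's limit for 8 values in 39 groups, or 6.96%, where chance flags about 1 in 20 groups. In DP, 25 groups were affected, spread over all 8 libraries. DP zone 1 replicate 1 stood apart in Ccl7 (0.721 RPKM, with the others at 0 to 0.144), Cdon (3.72 RPKM, with the others at 0.373 to 1.21), Hoxc6 (27.05 RPKM, with the others at 40.6 to 55.7) and Igfbp5 (25.4 RPKM, with the others at 10.05 to 14.2). DP zone 1 replicate 2 stood apart in Cd55 (1.54 RPKM, with the others at 3.93 to 7.32) and Dync2li1 (13.3 RPKM, with the others at 17.97 to 23.3). DP zone 2 replicate 1 stood apart in Ifit3 (0.135 RPKM, with the others at 0 to 0.0541), Isg15 (4.33 RPKM, with the others at 0.179 to 1.25), Mybpc1 (0.193 RPKM, with the others at 0 to 0.0395) and Sh3bgr (0.3496 RPKM, with the others at 0 to 0.0655). DP zone 2 replicate 2 stood apart in Gbp3 (6.14 RPKM, with the others at 0 to 1.29), Igtp (0.339 RPKM, with the others at 3.06 to 5.65), Kcnmb1 (0.0818 RPKM, with the others at 0), Smo (58.8 RPKM, with the others at 29.8 to 39.8) and the number of genes detected at 1 RPKM (10812, with the others at 11356 to 11808). DP zone 3 replicate 1 stood apart in Itga11 (1.96 RPKM, with the others at 0.197 to 0.802), Kcnk2 (0.391 RPKM, with the others at 0 to 0.0127) and Tnfrsf26 (0.116 RPKM, with the others at 0 to 0.0302). DP zone 3 replicate 2 stood apart in Ccnd3 (48.9 RPKM, with the others at 41.96 to 45.02), Cdh19 (0.5896 RPKM, with the others at 0 to 0.142) and Thrb (83.05 RPKM, with the others at 47.2 to 57.6). DP zone 4 replicate 1 stood apart in Myl12b (118 RPKM, with the others at 62.7 to 73.1). DP zone 4 replicate 2 stood apart in C3 (2.44 RPKM, with the others at 0.168 to 0.737), Cxcr4 (62.4 RPKM, with the others at 106 to 146) and H2-K1 (23.96 RPKM, with the others at 40.6 to 62.4).

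In DF, 14 groups were affected, in 6 of the 8 libraries. DF zone 1 replicate 1 stood apart in Creb5 (47.3 RPKM, with the others at 24.2 to 32.7), Nr3c1 (47.2 RPKM, with the others at 35.9 to 39.9) and Sostdc1 (2.15 RPKM, with the others at 5.66 to 8.83). DF zone 1 replicate 2 stood apart in Irf8 (0.413 RPKM, with the others at 1.71 to 2.66), Itgbl1 (146 RPKM, with the others at 189 to 237), Kcnmb1 (2.39 RPKM, with the others at 4.64 to 7.602) and Mybpc1 (11.7 RPKM, with the others at 22.5 to 34.1). DF zone 2 replicate 1 stood apart in Igf1r (15.2 RPKM, with the others at 17.1 to 18.5). DF zone 2 replicate 2 stood apart in Pde3a (1.15 RPKM, with the others at 3.24 to 6.16), Smo (7.04 RPKM, with the others at 12.3 to 13.8) and Socs3 (17.8 RPKM, with the others at 4.39 to 6.69). DF zone 3 replicate 2 stood apart in Cacng7 (10.7 RPKM, with the others at 0.0881 to 2.23). DF zone 4 replicate 1 stood apart in Inhba (165 RPKM, with the others at 69.4 to 104) and Runx1 (1.08 RPKM, with the others at 1.84 to 2.65). Each of these values entered the results above, and no call of a named gene on deposited values was lost when any one library was left out. For named genes the calls on both scalings were not followed in these runs. Over all genes, 1924 to 1982 of the 2040 calls on both scalings were kept. No gene passed the population by zone test on either scaling, so no difference between zones was listed here.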

How the results depend on the processing

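No gene called in the main comparison was called in the opposite direction under any alternative run. Main counts were 5144 genes called on deposited values (4103 higher and 1041 lower in DP) and 2040 on both scalings (999 and 1041). Other scalings moved the split between directions: median-of-ratios gave 2870 calls (999 and 1871), quantile scaling 2914 (1268 and 1646), and voom on recovered reads 1561 higher, also on both scalings, and 2400 lower. A pseudocount of 5 gave 2111 calls (1580 and 531) and 930 on both scalings (399 and 531), and a pseudocount of 0.1 gave 1582 higher on both. With no minimum difference there were 9351 calls (7663 and 1688) and 4395 on both (2710 and 1685); with a minimum of 2 there were 1018 (572 and 446) and 682 on both (236 and 446). On deposited values a pseudocount of 5 also ended the calls of 14 named genes of low level: Cdh19, Gbp7, Idi1, Ifit3, Igtp, Isg15, Kcna1, Kcnk2, Mki67, Mvd, Rorb, Rrm2, Sox10 and Tgfb3. Leaving out each library gave 5089 to 5298 calls, 2026 to 2086 on both scalings (985 to 1033 higher and 1032 to 1061 lower), and 0 to 3 genes with a population by zone difference; leaving out each zone gave 4961 to 5326 calls. The main count of 0 such zone genes became 1 at a pseudocount of 5, 16 with no filter and 27 in the model of 28 group means over all 56 libraries. The difference in detected genes was 650 to 792.2 without each library, 108.1 at 0.1 RPKM (exact permutation p = 0.6384) and -361.6 after scaling. Library totals without Rn45s gave 4706 calls, and all 2040 calls on both scalings were kept. DP and DF libraries of the same zone and replicate number deviated together only weakly (r from 0.0183 to 0.083). In 5 of 8 cases the best match was the library of the same zone and number. These values do not settle whether equal numbers mark true pairs. The main fit used zone only, and the 8 pairs in which signs were counted follow zone and number. The replicate block, which treats equal numbers as pairs, gave 5155 calls, of which 5140 were main calls. Depth limits low genes: near 0 RPKM, the pseudocount and not the reads sets the difference. The causes of these shifts were not tested beyond what each setting changes by construction.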

Other observations

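Gene families named by their symbols, which were not chosen for a function in skin, are set beside the background of 7.18% higher and 7.48% lower on both scalings. Of 224 tested solute carriers 22 were higher and 20 lower in DP, and of 336 zinc-finger genes named Zfp 15 were higher and 4 lower. Forkhead factors (18 tested) and keratins (10 tested) had no call. Families with more members lower than higher were potassium channel subunits, with 4 higher and 13 lower of 38, cytochrome P450 enzymes, with 1 and 7 of 22, TNF superfamily genes, with 0 and 7 of 22, and regulators of G-protein signalling, with 0 and 4 of 14. Kinesins had 4 higher and 0 lower of 27. Their medians kept one sign on both scalings for zinc-finger genes (0.82 and 0.24) and P450 enzymes (-0.45 and -0.75), and turned sign for solute carriers (0.40 and -0.16), potassium channels (0.04 and -0.31), TNF superfamily genes (0.16 and -0.42) and regulators of G-protein signalling (0.08 and -0.29).

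The spread between replicates was wider in DP than in DF, given here as a description without a test. The median standard deviation between the replicates of a zone was 0.42 on the log2(RPKM + 1) scale in DP and 0.36 in DF over 13922 genes, and 0.30 over 5533 genes with a mean of at least 10 RPKM in DP and 0.24 over 3518 such genes in DF. Depth was also lower in DP, with a median of 18.2 M reads in DP and 25.4 M reads in DF, and its part was not tested.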
